A study of Mus musculus with 12 samples.

Results

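Respiratory complex I is the first enzyme of the mitochondrial electron transport chain. Its genes were followed here in frontal cortex of mice lacking Upf3b. The members were all rows of the count table whose symbol starts with Nduf, 44 of 14909 genes. All 44 passed the filter on low counts, among 14274 genes tested. They comprised 35 subunits, 7 assembly factors (Ndufaf1 to Ndufaf7) and the pair Ndufa4 and Ndufa4l2, which was counted apart because Ndufa4 protein is now placed in complex IV. The subunits divided into 7 core subunits, which carry the catalytic centres, and 28 supernumerary subunits, which surround them. Complex I genes outside these 44 rows were not analysed here, except those named below.

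The mice were 5 Upf3b-null animals (KO 1, 2, 3, 4 and 6) and 7 wild-type animals (WT 1 to 7). All were C57BL/6 mice kept in a pathogen-free facility, with no treatment named. The allele, the cells in which Upf3b was lost, and the age and sex of the animals were not given in the sources used. Upf3b is an X-linked gene whose protein acts in nonsense-mediated mRNA decay (NMD), which removes transcripts with premature stop codons. Total RNA of dissected cortex was sequenced as bulk libraries, 1 per mouse.

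Complex I takes electrons from NADH in its matrix arm, passes them along iron-sulfur clusters to ubiquinone, and uses the energy released to pump protons through its membrane arm. Nuclear genes encode most subunits, and the mitochondrial genome encodes the core of the membrane arm. Assembly factors build the arms and modify subunits but are absent from the finished enzyme. Neurons depend on it for ATP, and loss of single subunits or assembly factors causes Leigh syndrome and related encephalopathies in humans. The roles given below were mostly worked out in human, bovine and fungal enzymes.

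Upf3b itself had 11 to 24 counts in the 5 KO libraries, against 157 to 219 counts in the 7 WT libraries. Its level averaged 2.76 ± 0.876 CPM in KO and 38.3 ± 2.48 CPM in WT (SD, n = 5 and 7), with no overlap. CPM values are counts scaled to a common library size with edgeR's trimmed-mean (TMM) factors. The log2 fold change, KO over WT, was -3.78 ± 0.13 (SE, adjusted p 7.22e-11), and an exact two-sided permutation test of its log2 CPM gave the smallest p that 792 arrangements allow, 0.00253. The totals ran from 4990643 to 6617759 counts in KO libraries and from 4684039 to 5425774 in WT libraries. KO 1, at 4990643, was the KO library with a total inside the WT range. The other 4 KO libraries were all deeper than any WT library, so that beyond KO 1 depth and genotype cannot be told apart. Markers of excitatory and inhibitory neurons, astrocytes, oligodendrocytes, microglia, endothelium and choroid plexus were all detected in this tissue.

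Without further correction, 34 of the 35 subunit genes were called lower in KO and 0 higher, while the 7 assembly factors divided into 2 lower, 2 higher and 3 not called. Calls were made with edgeR's quasi-likelihood test at a Benjamini-Hochberg adjusted p of 0.05, adjusted over all tested genes. Of all tested genes 14.4% were called lower and 15.3% higher. The median log2 fold change was -0.27 over subunits, -0.057 over assembly factors and 0.034 over all tested genes, and all 35 subunits had a negative value. The subunit calls depended on how the counts were scaled. With offsets that remove each library's own trend of counts with counts per exonic base (density offsets), 13 of 35 subunits were called lower, against 7.95% of all tested genes, and 0 higher, against 8.46%. When the offsets also removed the joint trend with exonic length, 5 of 35 were called lower, against 7.72% of tested genes. Offsets per coding base, chosen after seeing the data, left 22 of 35 lower, against 8.48%, and 0 higher, against 8.6%. A fit with the log2 library total as a covariate called 0 of 35 at an adjusted p of 0.05, and across all tested genes it called 11 (0.0771%) lower and 84 (0.588%) higher. At an unadjusted p of 0.05 that fit put 10 of 35 lower and 0 higher, against 808 lower and 1056 higher of all 14274 tested genes. Without offsets the Wald test of DESeq2 and limma-voom each called 34 lower and 0 higher.

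**Figure D1:**
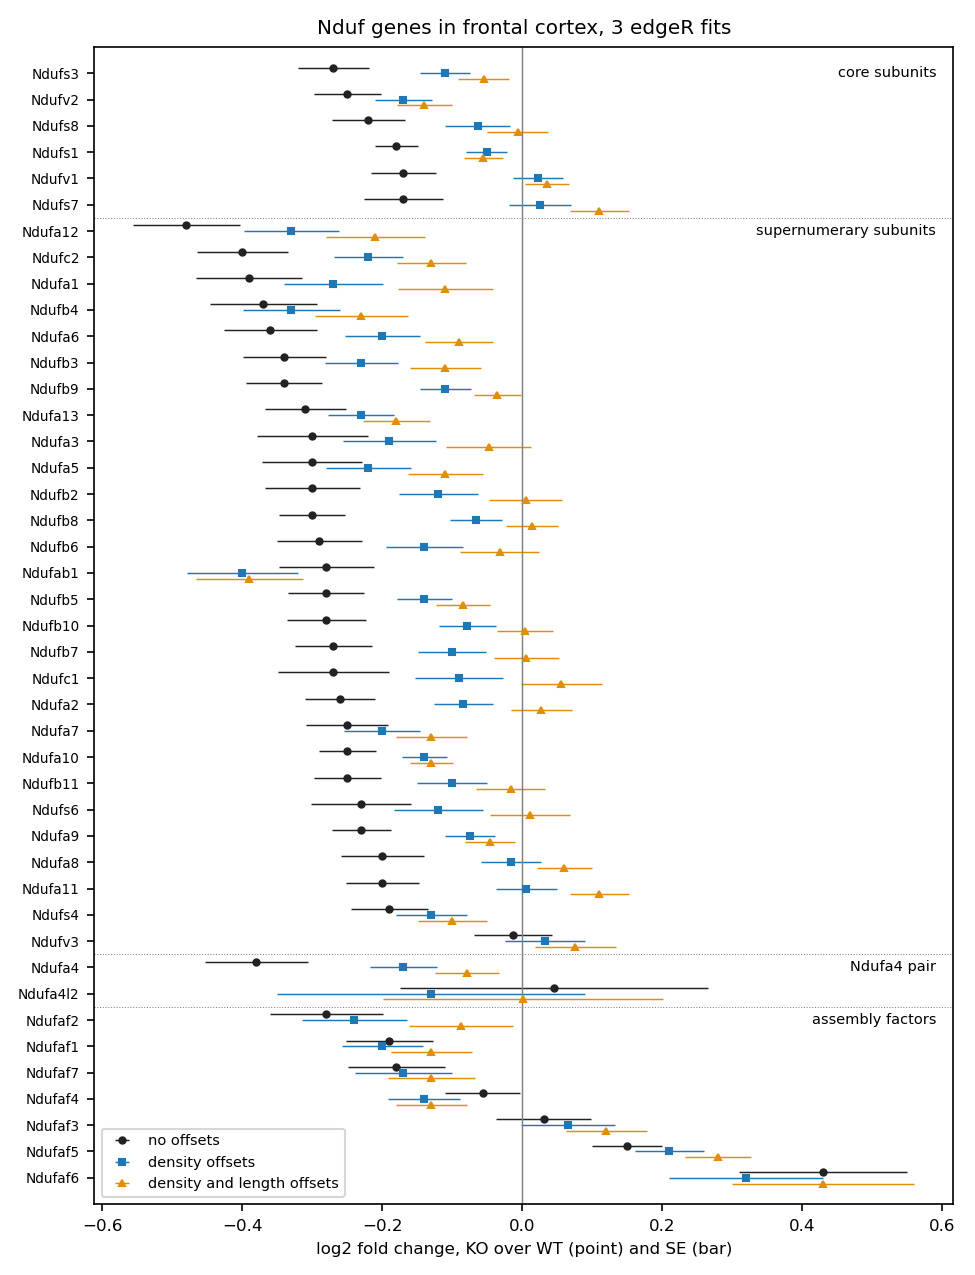
Log2 fold change, KO over WT, of the Nduf genes, apart from the core subunit whose single values are not reported. Values with SE are from edgeR without offsets, with density offsets and with density and length offsets, genes down the page by class. Without offsets every subunit drawn lies below 0, and with offsets the subunits lie closer to 0, apart from Ndufab1 and Ndufv3.

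The raw counts of the subunits were set beside the library totals. Summed over the 35 subunits, the counts ran from 9267 to 11392 in KO libraries and from 9276 to 11076 in WT libraries, so the sums overlapped almost completely. The mean sum in KO was 1.06 times that in WT, while the mean library total was 1.24 times as high and the mean sum over the 7 assembly factors 1.22 times as high. As a share of the library, subunits took 17.3 ± 0.748 of every 10000 counts in KO and 20.3 ± 0.823 in WT (SD, n = 5 and 7). Assembly factors took 2.4 ± 0.13 of every 10000 counts in KO and 2.45 ± 0.169 in WT, values that overlapped. Gene by gene, the ratio of mean raw counts (KO over WT) had a median of 1.04 over subunits, 1.21 over assembly factors and 1.29 over all tested genes. The subunits thus took lower shares of larger totals. A mean raw count in KO above that in WT was found for 28 of the 35 subunits, all 7 assembly factors and 13854 of the 14274 tested genes. In bulk tissue, fewer cells rich in mitochondria, less of these mRNAs per cell and the greater depth of most KO libraries cannot be told apart.

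**Figure D2:**
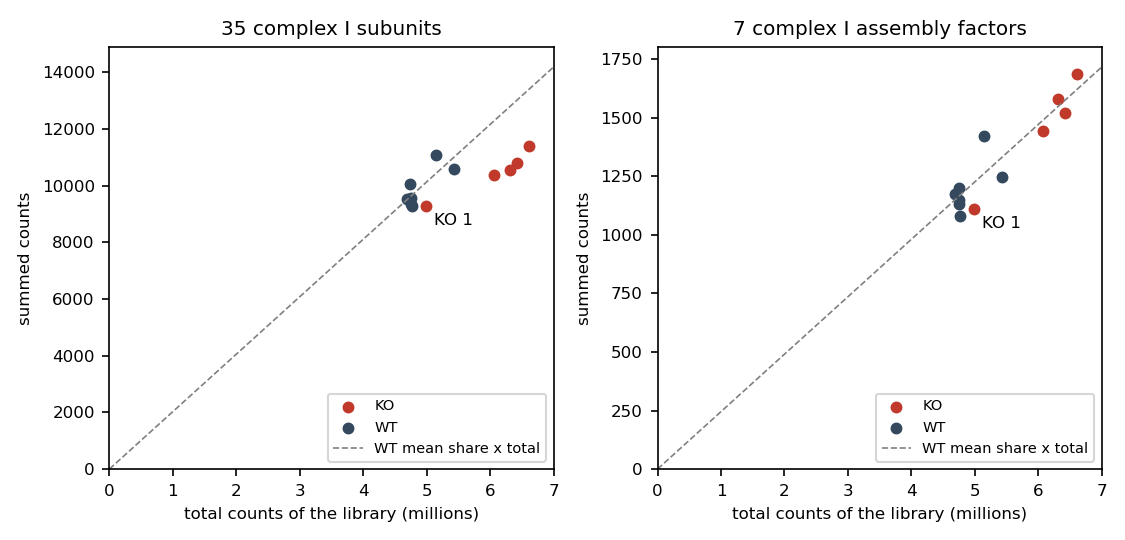
Summed raw counts of the 35 subunits and of the 7 assembly factors against the library total, 1 point per library, KO and WT, with a dashed line where the WT mean share of the total would place a library. Subunit sums spread 1.23-fold over the 12 libraries and assembly factor sums 1.56-fold, while library totals spread 1.41-fold.

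Subunit genes were short and densely counted. They had a median of 0.307 counts per exonic base averaged over libraries, against 0.138 for assembly factors and 0.0772 for all tested genes with a length. Their median exonic length was 861 bp, against 1451 bp for assembly factors and 3159 bp for all tested genes. Of the 35 subunits 22 fell in the densest decile of tested genes by counts per exonic base, and in that decile 67.5% of all genes were called lower without offsets and the median log2 fold change was -0.18. Another 8 subunits lay in the ninth decile, where 30.9% of genes were called lower, and 4 in the eighth, where 16.9% were. In the sparsest decile the median log2 fold change was 0.25 and 1.69% of genes were called lower. With density offsets 8.43% of the densest decile was called lower. By exonic length, 26 of the 35 subunits fell in the shortest decile, where with density offsets the median log2 fold change was -0.081 and 14.1% of genes were called lower. What sets this trend, and its part in the lower subunit levels, was not tested.

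**Figure D3:**
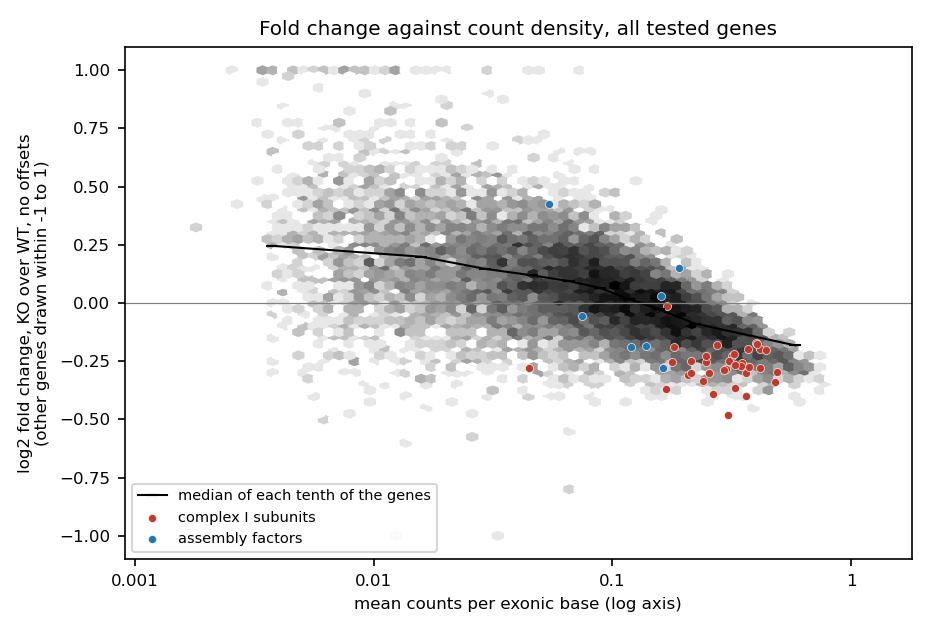
Log2 fold change without offsets, KO over WT, against mean counts per exonic base (log axis) for all tested genes with a length, with the median of each decile as a line and subunits and assembly factors as coloured points. Medians of the deciles pass from 0.25 at the sparse end to -0.18 at the dense end, where 22 of the 35 subunits lie.

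The core subunits measured are nuclear-encoded parts of the matrix arm. The 6 described here were called lower without offsets, by 0.17 to 0.27 on the log2 scale, and 1 of the 6, Ndufv2, remained lower with density offsets. Ndufv2 holds an iron-sulfur cluster next to the flavin site (chromosome 17, 66078638 to 66101559, minus strand, GRCm38). It stood at 73.2, 63.6, 62.7, 60.9 and 62.2 CPM in KO 1, 2, 3, 4 and 6, against 73.9 to 80.9 CPM (median 76.3) in WT. Every KO library lay below every WT library, though KO 1 came within 1 CPM of the lowest WT value. The log2 fold change was -0.25 ± 0.048 without offsets (SE, adjusted p 0.00206), -0.17 with density offsets (adjusted p 0.0139) and -0.14 with density and length offsets (adjusted p 0.0247).

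Ndufv1, which binds the flavin that accepts electrons from NADH, had 130.2, 111.3, 113.8, 113.1 and 110.7 CPM in the same KO libraries, against 123.7 to 138.2 CPM (median 129.4) in WT. KO 1 lay among the WT libraries and the other 4 KO libraries below all of them. The change in log2 terms was -0.17 ± 0.046 (SE, adjusted p 0.0116) without offsets and 0.022 with density offsets (adjusted p 0.725). Ndufs1, the largest subunit, which carries several iron-sulfur clusters, had 130.2, 124.7, 125.2, 127.9 and 124.4 CPM in KO, against 139.6 to 146.2 CPM (median 144.3) in WT. The groups did not overlap. For Ndufs1 the log2 fold change was -0.18 ± 0.030 (SE, adjusted p 0.000918) without offsets and -0.051 with density offsets (adjusted p 0.261).

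Ndufs7, which holds the last iron-sulfur cluster before ubiquinone, had 57.6, 50.2, 51.7, 51.2 and 51.8 CPM in KO, against 53.3 to 66.6 CPM (median 59.2) in WT, with KO 1 alone inside the WT range. Without offsets its log2 fold change was -0.17 ± 0.056 (SE, adjusted p 0.0335). The call was lost without KO 2, 3, 4 or 6 or WT 1, 2, 5 or 7 (adjusted p 0.0539 to 0.0786). With density offsets its value was 0.026 (adjusted p 0.758). Ndufs3, a scaffold of the lower matrix arm, had 65.2, 53.9, 55.3, 53.2 and 58.4 CPM in KO, against 66.7 to 71.4 CPM (median 68.0) in WT, with no overlap. Ndufs8, which holds a pair of iron-sulfur clusters near the membrane, had 62.7, 53.2, 55.3, 56.9 and 52.5 CPM in KO, against 61.5 to 69.8 CPM (median 65.9) in WT, with KO 1 overlapping. Their log2 fold changes were -0.27 ± 0.051 (SE, adjusted p 0.00192) and -0.22 ± 0.052 (SE, adjusted p 0.00572) without offsets, and -0.11 and -0.064 with density offsets (adjusted p 0.0735 and 0.372).

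Of the 28 supernumerary subunits 27 were called lower without offsets, with a median log2 fold change of -0.28, and 12 remained lower with density offsets. Without offsets all 13 Ndufa and Ndufab1 genes, all 10 Ndufb genes, both Ndufc genes and 2 of the 3 supernumerary Ndufs and Ndufv genes were lower. With density offsets 8 of the 13 Ndufa and Ndufab1 genes, 3 of the 10 Ndufb genes, 1 of the 2 Ndufc genes and 0 of the 3 others were lower. Of all tested genes 14.4% were lower without offsets and 7.95% with density offsets. In the same order, offsets per coding base gave 8, 9, 1 and 0 lower, against 8.48% of all tested genes. Density and length offsets gave 3, 1, 0 and 0, against 7.72%, so the order of the families turned with the scaling. By position in the enzyme, 15 of 16 matrix arm subunits, core included, and 18 of 18 membrane arm subunits were lower without offsets. With density offsets 5 of 16 and 7 of 18 were, with offsets per coding base 8 of 16 and 13 of 18, and with density and length offsets 1 of 16 and 3 of 18. Ndufab1, which sits in both arms, was lower in each of these fits. The exception without offsets was Ndufv3, a small subunit of the NADH-binding tip. It had 45.8, 50.5, 53.3, 48.9 and 47.2 CPM in KO and 45.5 to 53.5 CPM (median 49.4) in WT. The groups overlapped fully, with a log2 fold change of -0.013 ± 0.055 (SE, adjusted p 0.876).

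Without offsets the largest fold change among subunits was that of Ndufa12, a matrix arm subunit (chromosome 10, 94198720 to 94221443, plus strand). It had 28.0, 23.2, 24.5, 26.1 and 30.6 CPM in KO, against 33.8 to 42.0 CPM (median 36.4) in WT, with no overlap. Its log2 fold change was -0.48 ± 0.076 without offsets (SE, adjusted p 0.000681), -0.33 with density offsets (adjusted p 0.00539) and -0.21 with density and length offsets (adjusted p 0.0539). Ndufa6, a matrix arm subunit that docks the acyl carrier protein Ndufab1, had 35.8, 29.2, 30.0, 29.5 and 31.3 CPM in KO, against 36.1 to 43.4 CPM (median 40.5) in WT. The groups did not overlap, and the log2 fold change was -0.36 ± 0.067 without offsets (SE, adjusted p 0.00155), -0.20 with density offsets (adjusted p 0.0197) and -0.090 with density and length offsets (adjusted p 0.3). Without KO 4 the adjusted p of Ndufa6 with density offsets was 0.0584.

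In the membrane arm, Ndufa10, a kinase-fold protein on its matrix face (chromosome 1, 92439010 to 92473860, minus strand), had 88.5, 80.1, 84.8, 81.0 and 84.9 CPM in KO, against 94.7 to 106.3 CPM (median 100.5) in WT. The groups were separate, and the log2 fold change was -0.25 ± 0.041 without offsets (SE, adjusted p 0.000758), -0.14 with density offsets (adjusted p 0.00953) and -0.13 with density and length offsets (adjusted p 0.012). Ndufa13, also known as GRIM-19 (chromosome 8, 69894180 to 69902558, minus strand), had 49.7, 39.5, 42.1, 39.8 and 44.3 CPM in KO, against 49.8 to 55.8 CPM (median 53.9) in WT. KO 1 stood just under the lowest WT library and the other 4 well under it. Expressed as a log2 fold change this was -0.31 ± 0.058 without offsets (SE, adjusted p 0.00172), -0.23 with density offsets (adjusted p 0.00512) and -0.18 with density and length offsets (adjusted p 0.0213). Exons of Ndufa13 share a stretch of 375 bp with Tssk6 on the opposite strand, the longest found for this gene. Whether reads were counted by strand is not stated in the sources used.

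Another 4 membrane arm subunits passed both fits by the rule on named genes. Ndufc2 had 45.4, 37.9, 37.2, 34.0 and 42.6 CPM in KO, against 50.5 to 54.8 CPM (median 51.1) in WT, and Ndufb3 had 30.7, 27.8, 30.4, 29.2 and 30.1 CPM in KO, against 34.0 to 41.5 CPM (median 37.0) in WT. Both were separate between the groups. Ndufa1, a single-span subunit needed early in membrane arm assembly, had 19.8, 18.5, 16.7, 16.0 and 17.3 CPM in KO, against 21.0 to 25.3 CPM (median 23.3) in WT, also without overlap. Ndufb5 had 60.7, 50.8, 49.8, 54.9 and 52.5 CPM in KO, against 60.4 to 68.4 CPM (median 65.1) in WT, with KO 1 inside the WT range. The log2 fold changes without offsets were -0.40 for Ndufc2, -0.34 for Ndufb3, -0.39 for Ndufa1 and -0.28 for Ndufb5, with adjusted p from 0.000748 to 0.0021. With density offsets they were -0.22, -0.23, -0.27 and -0.14, with adjusted p from 0.00854 to 0.0272. With density offsets the call for Ndufb5 was lost without KO 2, 3 or 6 or WT 3 or 5 (adjusted p 0.051 to 0.0945), and that for Ndufa1 without KO 3 or 4 (adjusted p 0.0519 and 0.0639). With density and length offsets none of the 4 passed (adjusted p 0.0919 to 0.328). Exons of Ndufb5 share a stretch of 216 bp, the longest found for this gene, with Mrpl47 on the opposite strand. Ndufa1 lies on the X chromosome 77266 bp from Upf3b, so a part of that locus carried along with the allele and the loss of Upf3b cannot be told apart for this gene.

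In all, 5 subunits were lower in each of the 4 fits without a covariate: Ndufv2, Ndufa10, Ndufa13, Ndufab1 and Ndufb4. Ndufab1 and Ndufb4 lie outside the rule on named genes and were chosen after their values were seen. Ndufab1 is the mitochondrial acyl carrier protein, which also serves fatty acid synthesis (chromosome 7, 122085403 to 122101886, minus strand). It had 29.2, 22.2, 24.8, 26.3 and 27.6 CPM in KO, against 30.2 to 33.1 CPM (median 31.3) in WT, with no overlap. Its log2 fold change was -0.28 ± 0.068 without offsets (SE, adjusted p 0.00681), -0.40 with density offsets (adjusted p 0.00432) and -0.39 with density and length offsets (adjusted p 0.00367). It was the 1 subunit below the eighth decile of tested genes by density, at 0.0447 counts per exonic base, since its annotated exons add up to 3479 bp while its coding part is 468 bp long. With offsets per coding base its log2 fold change was -0.24 (adjusted p 0.0158). Ndufb4, a subunit of the membrane arm, had 30.9, 22.2, 25.3, 24.3 and 28.1 CPM in KO, against 31.0 to 35.9 CPM (median 33.8) in WT. KO 1 was level with the lowest WT library and just under it. The log2 fold change was -0.37 ± 0.077 without offsets (SE, adjusted p 0.00281), -0.33 with density offsets (adjusted p 0.00609) and -0.23 with density and length offsets (adjusted p 0.03). The annotation holds processed pseudogenes of both genes (Ndufab1-ps and Ndufb4c), and whether reads shared with them were counted is not stated there either.

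**Figure D4:**
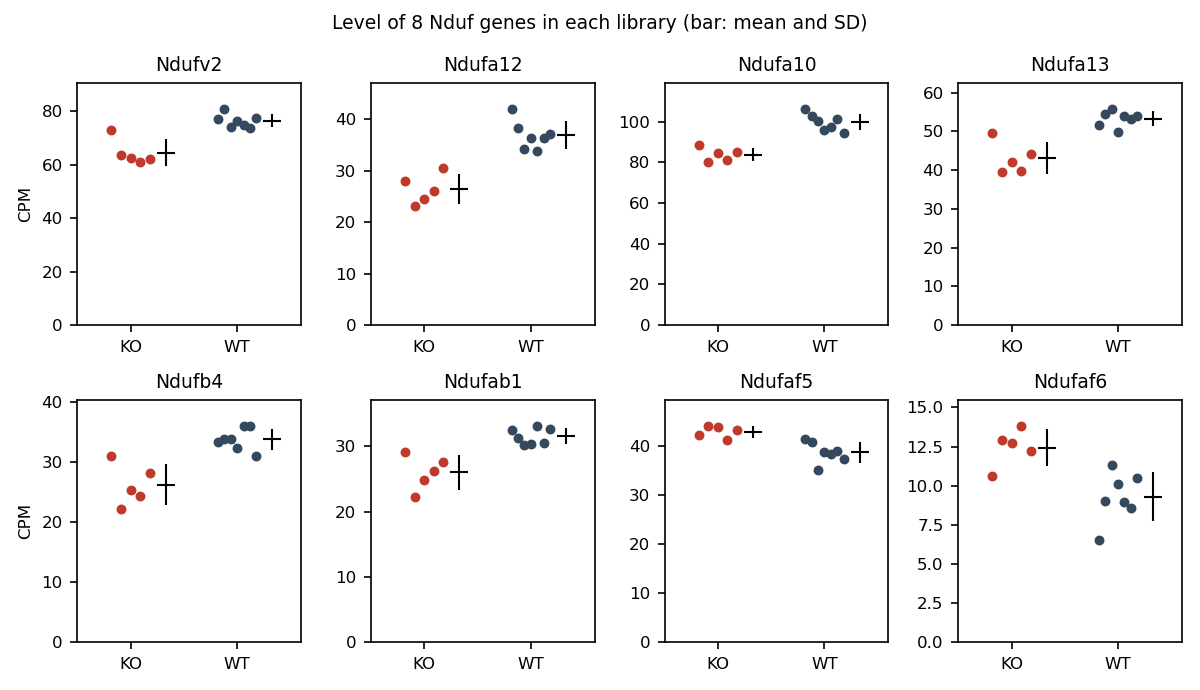
Level in CPM of 8 Nduf genes in each library, KO left and WT right, 1 point per mouse in order of mouse number, with mean and SD as a cross. The 6 subunits have every KO library below every WT library, and the assembly factors Ndufaf5 and Ndufaf6 have higher means in KO with overlapping libraries.

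Across the 35 subunits, 18 had every KO library below every WT library and 0 had every KO library above, against 4.8% and 5.84% of all tested genes. This separation was read in CPM without offsets. In the fit without offsets 67.5% of the densest decile of genes was called lower, and 22 of the 35 subunits lie in that decile. None of the 7 assembly factors was separate in either direction. The per-library picture was uneven. The median log2 deviation of the 35 subunits from their WT means was -0.107 in KO 1, -0.316 in KO 2, -0.295 in KO 3, -0.32 in KO 4 and -0.269 in KO 6, against -0.0516 to 0.0517 in the WT libraries. KO 1, whose library total lies within the WT range, had the smallest deviation of the 5, below all WT libraries. With density offsets the 5 values were -0.0856, -0.112, -0.108, -0.155 and -0.13, against -0.0533 to 0.0405 in WT, so that KO 1 stood closer to the other KO libraries. The same median over the assembly factors ran from -0.117 to 0.0394 in KO and from -0.0612 to 0.149 in WT, and overlapped.

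By level per length, the highest member was Ndufb8, a membrane arm subunit, with a mean of 92.0 CPM per kb of exon over the 12 libraries, and the lowest was Ndufa4l2, with 3.43 CPM per kb. The assembly factors lay in the lower part of the order, from 9.8 CPM per kb for Ndufaf6 to 34.7 CPM per kb for Ndufaf5. Ndufb8 had 60.5, 52.2, 54.8, 53.3 and 55.3 CPM in KO, against 63.4 to 72.2 CPM (median 68.0) in WT. The groups did not overlap, and the log2 fold change was -0.30 ± 0.047 (SE, adjusted p 0.000706) without offsets and -0.066 with density offsets (adjusted p 0.329). Ndufa4, the complex IV subunit, had 52.1, 39.5, 39.5, 38.6 and 41.0 CPM in KO, against 49.4 to 58.6 CPM (median 56.1) in WT, with KO 1 inside the WT range. Its log2 fold change was -0.38 ± 0.074 without offsets (SE, adjusted p 0.00217), -0.17 with density offsets (adjusted p 0.0262) and -0.079 with density and length offsets (adjusted p 0.302). With density offsets the call was lost without KO 3, 4 or 6 (adjusted p 0.0632 to 0.0785). Ndufa4l2, its hypoxia-induced paralog, had 2.45, 3.42, 3.69, 3.84 and 2.80 CPM in KO and 1.93 to 4.92 CPM (median 2.98) in WT, ranges that overlapped, with a log2 fold change of 0.046 ± 0.22 (SE, adjusted p 0.896).

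Among the assembly factors, Ndufaf5 and Ndufaf6 were higher in KO without offsets. Ndufaf5, which hydroxylates an arginine of Ndufs7 (chromosome 2, 140170649 to 140203689, plus strand), had 42.3, 44.1, 43.9, 41.2 and 43.4 CPM in KO, against 35.1 to 41.4 CPM (median 38.8) in WT. KO 1, 2, 3 and 6 lay above every WT library and KO 4 just under the highest. The log2 fold change was 0.15 ± 0.050 without offsets (SE, adjusted p 0.0342), 0.21 with density offsets (adjusted p 0.00983) and 0.28 with density and length offsets (adjusted p 0.00138). Without offsets the call was lost without KO 2, 3 or 6 or WT 3, 4, 5 or 7 (adjusted p 0.058 to 0.0838), and with density offsets it held whichever of the 12 libraries was left out. With all libraries it did not pass with DESeq2 size factors (adjusted p 0.0608), without the filter on low counts (adjusted p 0.0577), in the DESeq2 Wald test (adjusted p 0.165) or with offsets per coding base (0.12, adjusted p 0.114). Ndufaf6, which acts in assembly of the ubiquinone module, had 10.6, 12.9, 12.7, 13.8 and 12.2 CPM in KO, against 6.51 to 11.3 CPM (median 9.05) in WT. KO 1 fell within the WT range and the other 4 KO libraries above it. Its log2 fold change was 0.43 ± 0.12 without offsets (SE, adjusted p 0.0185), 0.32 with density offsets (adjusted p 0.0728) and 0.43 with density and length offsets (adjusted p 0.0316). Without KO 4 its adjusted p was 0.0566 without offsets.

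Ndufaf1 and Ndufaf2 were lower in KO without offsets. Ndufaf2 is a paralog of Ndufa12 that holds its place on the assembling matrix arm until Ndufa12 joins. It had 17.2, 17.1, 19.5, 16.6 and 20.9 CPM in KO, against 20.1 to 24.7 CPM (median 22.2) in WT, with 4 of 5 KO libraries below all WT libraries. The log2 fold change was -0.28 ± 0.080 without offsets (SE, adjusted p 0.017), -0.24 with density offsets (adjusted p 0.0398) and -0.088 with density and length offsets (adjusted p 0.489). Ndufaf1, part of the complex that builds the membrane arm, had 27.6, 30.6, 31.9, 29.4 and 30.4 CPM in KO, against 31.1 to 37.9 CPM (median 33.6) in WT, with KO 3 alone inside the WT range. The log2 fold change was -0.19 ± 0.062 without offsets (SE, adjusted p 0.0326), -0.20 with density offsets (adjusted p 0.0318) and -0.13 with density and length offsets (adjusted p 0.137). Without offsets the call for Ndufaf2 was lost without KO 4 (adjusted p 0.0533), and that for Ndufaf1 without KO 1, 4 or 6 or WT 2, 5 or 6 (adjusted p 0.0521 to 0.0749). With density offsets the call for Ndufaf2 was lost without KO 1, 2 or 4 or WT 1, 2, 3, 5 or 6 (adjusted p 0.0559 to 0.113), and that for Ndufaf1 without KO 1, 4 or 6 or WT 2, 5 or 6 (adjusted p 0.0552 to 0.0797). With density and length offsets 0 assembly factors were called lower and 2 higher, against 7.72% and 8.53% of tested genes.

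The other 3 assembly factors did not pass without offsets, with density offsets or with density and length offsets. Ndufaf3 and Ndufaf4, which bind each other on the ubiquinone module, had 42.9, 45.9, 45.4, 45.3 and 41.3 CPM and 47.0, 49.6, 52.5, 50.0 and 46.6 CPM in KO, against 38.7 to 50.4 CPM (median 43.2) and 45.7 to 56.8 CPM (median 50.9) in WT. The groups overlapped for both genes. Their log2 fold changes were 0.030 ± 0.068 (SE, adjusted p 0.767) and -0.057 ± 0.054 (SE, adjusted p 0.45). Ndufaf7, an arginine methyltransferase, had 38.8, 45.5, 43.6, 37.5 and 42.5 CPM in KO, against 40.5 to 53.0 CPM (median 47.1) in WT, with KO 1 and KO 4 below all WT libraries, and a log2 fold change of -0.18 ± 0.069 (SE, adjusted p 0.0565). It passed as lower with offsets per coding base (-0.23, adjusted p 0.0339), with DESeq2 size factors (adjusted p 0.0397), without the filter on low counts (adjusted p 0.0431), and without offsets when KO 2 (adjusted p 0.0388) or WT 4 (adjusted p 0.0111) was left out. The contrast between the classes also depended on the scaling. The subunit median minus the assembly factor median was -0.215 without offsets and -0.216 with offsets per coding base. With density offsets it was 0.0181, and with density and length offsets 0.0414. Both were smaller than the median SE of single genes in those fits (subunits 0.0486 and 0.0473, assembly factors 0.0672 and 0.0577). Counts per exonic base differ between the classes, and their part in the contrast was not tested beyond these offsets.

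Many nuclear genes of the respiratory chain are regulated by NRF1 (nuclear respiratory factor 1), which binds GC-rich palindromes near start sites. The letters GCGCANGCG, the core of such a palindrome searched on both strands, were found in 7 of the 31 subunit promoters listed by RefSeq (22.6%), in 2 of 6 assembly factor promoters (33.3%) and in 6.47% of all 27025 promoters. Each window spans 250 bases before to 50 bases after the annotated start (GRCm38.p6). Stretches of 3 members are shown 5′ to 3′ on the gene's strand, with the matches on either strand in capitals: Ndufb4, lower in all 4 fits without a covariate, Ndufa11, lower in the fit without offsets and not in the other 3, and the assembly factor Ndufaf4, which did not pass in those 4 fits. They lie at chr16:37654505-37654604 (minus strand), chr17:56717657-56717756 (plus strand) and chr4:24897925-24898024 (plus strand).
Ndufb4: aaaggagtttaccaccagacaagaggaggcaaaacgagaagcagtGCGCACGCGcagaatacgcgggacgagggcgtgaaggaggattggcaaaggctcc
Ndufa11: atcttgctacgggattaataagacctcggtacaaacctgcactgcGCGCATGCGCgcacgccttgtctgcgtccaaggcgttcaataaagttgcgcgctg
Ndufaf4: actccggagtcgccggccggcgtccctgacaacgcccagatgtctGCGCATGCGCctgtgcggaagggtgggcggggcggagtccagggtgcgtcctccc
The first match begins at position -191 from the RefSeq start in Ndufb4, at -60 in Ndufa11 and at -113 in Ndufaf4. Ndufb4 has further matches at -79 and -22, which lie inside the gene as annotated in GENCODE M21. Ndufa11 and Ndufaf4 hold overlapping matches on both strands. The letters CCGGAAG, bound by ETS factors such as GABP, were in 4 of 31 subunit promoters (12.9%), 1 of 6 assembly factor promoters (16.7%) and 9.12% of all promoters. The letters AAGATGGC, bound by YY1, were in 7 of 31 subunit promoters (22.6%), 0 of 6 assembly factor promoters and 2.88% of all promoters. Matches of different motifs did not overlap in any member. A match is a run of letters, not a bound site. Members without a listed promoter included Ndufs1, Ndufa2, Ndufb9, Ndufaf6 and Ndufa4l2.

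The factors themselves were measured too. Of 12 regulators of nuclear respiratory genes, 3 were higher in KO without offsets and 0 lower, where 15.3% and 14.4% of all tested genes were. With density offsets 2 were higher and 1 lower, where 8.46% and 7.95% of all tested genes were. Nrf1 had 31.9 ± 2.09 CPM in KO and 29.2 ± 2.18 CPM in WT (SD), a log2 fold change of 0.13 ± 0.066 (SE, adjusted p 0.14) and of -0.013 with density offsets (adjusted p 0.94). The coactivators of the PGC-1 family were the 3 higher genes. Pprc1 had 53.1 ± 2.79 CPM in KO and 41.7 ± 3.8 CPM in WT (SD), a log2 fold change of 0.35 ± 0.064 (SE, adjusted p 0.00157) and of 0.23 with density offsets (adjusted p 0.0257). Ppargc1b had 19.2 ± 2.56 CPM in KO and 12.2 ± 3.59 CPM in WT (SD), a log2 fold change of 0.65 ± 0.17 (SE, adjusted p 0.00952) and of 0.49 with density offsets (adjusted p 0.0383). Ppargc1a had 108.4 ± 6.91 CPM in KO and 89.3 ± 11.6 CPM in WT (SD), a log2 fold change of 0.28 ± 0.077 (SE, adjusted p 0.0143) and of 0.21 with density offsets (adjusted p 0.0624). Yy1, the gene lower with density offsets, had 52.9 ± 4.02 CPM in KO and 58.4 ± 3.31 CPM in WT (SD), a log2 fold change of -0.15 ± 0.057 (SE, adjusted p 0.0637) and of -0.26 with density offsets (adjusted p 0.0102).

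Of 12 further complex I assembly factors without the Nduf name, 9 were in the table, and 2 were higher and 1 lower in KO without offsets, shares near those of all tested genes (15.3% and 14.4%). With density offsets 1 was higher and 1 lower, against 8.46% and 7.95% of all tested genes. Foxred1, an assembly factor of the oxidoreductase family, had 55.6 ± 4.32 CPM in KO and 46.5 ± 3.22 CPM in WT (SD), a log2 fold change of 0.26 ± 0.061 (SE, adjusted p 0.00621) and of 0.25 with density offsets (adjusted p 0.0148). Tmem70, which helps assemble complex V and the membrane arm of complex I, had 47.4 ± 3.06 CPM in KO and 56.4 ± 2.57 CPM in WT (SD), a log2 fold change of -0.25 ± 0.052 (SE, adjusted p 0.00281) and of -0.21 with density offsets (adjusted p 0.00818). Tmem186, a partner of Ndufaf1, had 41.9 ± 3.01 CPM in KO and 35.5 ± 2.07 CPM in WT (SD), a log2 fold change of 0.24 ± 0.059 (SE, adjusted p 0.00688) and of 0.15 with density offsets (adjusted p 0.0672). The 7 mitochondrially encoded subunits had no row in the count table under their mt-Nd symbols, so they were not analysed here.

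Because the study concerns an NMD factor, the annotation was searched for transcripts marked as NMD targets (GENCODE M21). At least 1 such transcript was annotated for 11 of 35 subunit genes (31.4%), 1 of 7 assembly factors (14.3%), which was Ndufaf2, and 26.6% of all tested genes with a length. The 11 subunits with such a transcript had a median log2 fold change of -0.25 without offsets and the 24 without one -0.27. All 11 and 23 of the 24 were called lower, against 14.4% of all tested genes. With density offsets the 11 had a median of -0.14 and 5 were called lower, and the 24 had a median of -0.11 and 8 were called lower. Of all tested genes 7.95% were lower in that fit. Offsets per coding base gave 6 of the 11 and 16 of the 24 lower, against 8.48% of all tested genes. Density and length offsets gave 1 and 4, against 7.72%, and the log2 library total as covariate gave 0 and 0, against 0.0771%. Counts per gene do not separate transcripts, so levels of the marked transcripts were not measured.

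Markers of cell types were counted beside the complex I genes. Without offsets 2 of 6 excitatory neuron markers, 2 of 6 inhibitory neuron markers, 2 of 6 astrocyte markers, 3 of 6 oligodendrocyte markers and 4 of 6 microglia markers were lower in KO, 3 of 6 endothelial markers were higher, and 0 of the 3 tested choroid plexus markers and the 1 blood marker present passed. Of all tested genes 14.4% were lower and 15.3% higher in that fit. With density offsets 1 astrocyte marker and 3 microglia markers were lower, against 7.95% of all tested genes, and none of the others passed. The summed level of the 6 microglia markers ran from 422.0 to 465.1 CPM in KO and from 477.0 to 575.0 CPM in WT, without overlap. The summed level of the 6 excitatory neuron markers ran from 1151.9 to 1683.4 CPM in KO and from 1384.7 to 1733.5 CPM in WT. No marker of these 2 lists was at 0. Their part in the subunit levels was not tested.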

How the data were processed

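Bulk RNA sequencing libraries came from frontal cortex of 5 Upf3b-null and 7 wild-type C57BL/6 mice, with groups and mouse numbers from the sample titles. The authors deposited 1 table of raw read counts, whole numbers for each gene in each library, with no scaling. Reads were aligned with STAR to mm10, per the submitters' processing notes. How reads were assigned to genes, whether by strand, and how duplicate and multiply mapped reads were treated is not stated in the sources used. Annotated exons of 17 members overlap another gene, by up to 375 bp in a single stretch. Total overlap per member was not summed, and the counts of these members are uncertain for that reason.

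The test was run on the whole table in edgeR 4.0.16 under R 4.3.3 (TMM factors, filterByExpr by group, quasi-likelihood test with group as the only term, Benjamini-Hochberg adjustment over all tested genes, threshold 0.05). The biological coefficient of variation was 8.11%. Exonic lengths came from GENCODE M21, matched by transcript accession for 14734 genes and by symbol for 123, and 52 had none. Density offsets were lowess fits (span 0.3) of each library's log2 counts, relative to the mean library, on log2 counts per exonic base. The joint version used a loess surface on that density and exonic length. Other settings were offsets per coding base, the log2 library total as covariate, DESeq2 1.42.0 (size factors and Wald test), limma-voom (limma 3.58.1), no low-count filter, a threshold of 1 CPM in at least 5 libraries, a block for mouse number, leaving out each library, KO 2 and WT 4 left out together, and Ndufa4 with Ndufa4l2 counted as subunits. The level of Upf3b was also compared by an exact permutation test of log2(CPM + 0.5). Intervals and SE cover these mice and these libraries only.

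The members, classes and gene lists were chosen with earlier results of these data known, so no test over a list was made. The rule for named genes gives all core subunits, all assembly factors, the 8 supernumerary subunits with the smallest p among those that pass both without and with density offsets, Ndufa4, Ndufa4l2, the members highest and lowest per kilobase, and passing genes of the other lists. The single values of 1 core subunit are not reported here, and it is counted in the class totals. Offsets per coding base, and leaving out single libraries with density offsets, were chosen after seeing the data. The promoter motifs were also chosen after seeing the data, and those of NRF1 and YY1 were shortened after longer forms had been searched in the same promoters.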

Additional observations from a re-analysis of the deposited data

Results flagged for a closer look

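Each of 94 groups of 4 to 10 values (each member's CPM in KO and in WT, and the class medians per library) was searched for a single library far from the rest, and 8 were found, all with KO 1 above the other 4 KO libraries. By Dixon's 95% limit chance flags about 1 in 20 groups, and the members share their libraries. Ndufv1 had 130.2 CPM in KO 1, against 110.7 to 113.8 CPM in the other KO libraries. Ndufv2 had 73.2 CPM in KO 1 and 60.9 to 63.6 CPM in the others. Ndufs7 had 57.6 CPM in KO 1 and 50.2 to 51.8 CPM in the others. Among supernumerary subunits, Ndufa3 had 26.6 CPM in KO 1 and 19.6 to 21.4 CPM in the others, Ndufa8 had 65.2 CPM and 51.2 to 53.3 CPM, and Ndufb10 had 59.5 CPM and 47.0 to 50.2 CPM. Ndufa4 had 52.1 CPM in KO 1 and 38.6 to 41.0 CPM in the others. The median log2 deviation of the 35 subunits from their WT means was -0.107 in KO 1 and -0.32 to -0.269 in the others. KO 1 was also the KO library with the lowest total, 4990643 counts, and its part in these values was not tested. Without KO 1, the median log2 fold change of the subunits was -0.316 and 34 of 35 were called lower.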

How the results depend on the processing

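Without offsets, the 34 lower subunit calls were matched by 34 with DESeq2 size factors, the DESeq2 Wald test, limma-voom and a filter of 1 CPM in 5 libraries, and ranged from 30 to 34 when each library was left out. With Ndufa4 and Ndufa4l2 counted as subunits 35 were called lower. The offsets and the covariate moved them, as the report gives, to 13 with density offsets (9 to 15 without single libraries), 22 per coding base, 5 with density and length offsets and 0 with the log2 library total, and the median log2 fold change of the subunits to -0.118, -0.171, -0.0465 and -0.139. Without single libraries that median ran from -0.316 to -0.253.

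The assembly factor counts were small and moved easily. The count called higher, 2, was 1 with DESeq2 size factors, the DESeq2 Wald test, no filter, density offsets and KO 2 with WT 4 left out, and 0 per coding base and with the covariate. The count called lower, 2, was 0 with density and length offsets and with the covariate, and 3 with DESeq2 size factors, no filter, offsets per coding base and KO 2 with WT 4 left out. Without single libraries 1 to 2 were higher and 0 to 3 lower, both without offsets and with density offsets. In the fit without offsets, leaving out KO 4 gave 0 lower, and leaving out KO 2 or WT 4 gave 3. Their median, -0.0568, was -0.136 with density offsets, -0.162 with the covariate and 0.0449 per coding base, and -0.0823 to -0.029 without single libraries. The subunit median minus the assembly factor median was small and positive with density offsets (0.0181), density and length offsets (0.0414) and the covariate (0.0229). Without single libraries, in the fit without offsets, it ran from -0.273 to -0.175. The cause of these changes was not tested.

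Over all tested genes, 2185 were called higher and 2050 lower. Density offsets gave 1204 and 1131, offsets per coding base 1223 and 1206, density and length offsets 1213 and 1099, the covariate 84 and 11, and leaving out single libraries 1587 to 2420 and 1544 to 2467. Upf3b stayed between -3.96 and -3.64.

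Deviations from the group means in same-numbered KO and WT mice had correlations of 0.142, -0.376, -0.0474, -0.0758 and 0.0381. These values cannot show whether the numbers pair the mice, and the sample titles do not say. The highest correlation between a KO and a WT library was 0.519, for KO 2 and WT 4, which were left out together in another setting. Fits with the mouse number as a replicate block kept only numbers found in both groups, so WT 5 and WT 7 were left out of them. With that block 29 subunits were lower, 1 assembly factor was higher and 0 lower, and 1133 genes were higher and 1180 lower. The parts of the block and of the fewer libraries in these counts were not tested. The block with density offsets gave 1 subunit lower, 0 assembly factors in either direction, 369 genes higher and 225 lower, medians of -0.131 and -0.155 and a difference of 0.0241, with Ndufv1 at 0.00236 and Ndufs7 at 0.0258.

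Signs of single members turned under these settings. With density offsets Ndufv1 (0.0217), Ndufs7 (0.0256), Ndufv3 (0.0318) and Ndufa11 (0.00543) were positive and Ndufa4l2 (-0.13) negative. Offsets per coding base turned Ndufa4l2 (-0.107) and Ndufaf4 (0.0449). Density and length offsets turned Ndufv1 (0.0347), Ndufs7 (0.108), Ndufv3 (0.0755), Ndufs6 (0.0109), Ndufa2 (0.0271), Ndufa8 (0.0599), Ndufa11 (0.11), Ndufb2 (0.00445), Ndufb7 (0.00551), Ndufb8 (0.0135), Ndufb10 (0.00369) and Ndufc1 (0.0557). The covariate turned Ndufa8 (0.00194), Ndufa4l2 (-0.247) and Ndufaf3 (-0.00712), and leaving out KO 2 with WT 4 turned Ndufaf3 (-0.0175). Without single libraries Ndufv3 ran from -0.0454 to 0.00892, Ndufa4l2 from -0.0417 to 0.18 and Ndufaf3 from -0.00469 to 0.0701. Depth limits the rarest member most, and Ndufa4l2 had an SE of 0.22.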

Other observations

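Separation of the libraries and passing with density offsets picked out partly different subunits. Of the 18 subunits with every KO library below every WT library, 10 were also lower with density offsets and 8 did not pass there. Ndufb9, an LYR-motif subunit of the membrane arm that binds a copy of the acyl carrier protein, was among the 8. It had 62.5, 51.3, 53.9, 51.3 and 55.3 CPM in KO 1, 2, 3, 4 and 6, against 63.6 to 72.0 CPM (median 70.3) in WT, and a log2 fold change of -0.34 ± 0.054 (SE, adjusted p 0.000736) without offsets and -0.11 with density offsets (adjusted p 0.0666). Ndufa9, which lies beside the ubiquinone channel, was another, with 83.8, 73.1, 78.3, 74.4 and 77.5 CPM in KO, against 85.5 to 93.2 CPM (median 92.2) in WT. Its log2 fold change was -0.23 ± 0.042 (SE, adjusted p 0.00157) without offsets and -0.075 with density offsets (adjusted p 0.167). Conversely, Ndufa5, Ndufa7 and Ndufb5 were lower with density offsets although KO 1 overlapped the WT libraries. Ndufa7, a matrix arm subunit, had 38.2, 35.8, 32.2, 31.5 and 32.9 CPM in KO, against 37.7 to 42.3 CPM (median 41.5) in WT, and a log2 fold change of -0.20 with density offsets (adjusted p 0.0222), a call lost without KO 3, 4 or 6 (adjusted p 0.0586 to 0.0725). Ndufb9, Ndufa9, Ndufa5 and Ndufa7 were chosen after their values were seen.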
